A study of Danio rerio with 45 samples.

Results

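The genes described here are the DEAD and DEAH box RNA helicase genes of the zebrafish (Danio rerio), followed over the first hours after fertilisation and along the animal-vegetal axis of the embryo. Members were chosen by symbol: every gene of the count table whose symbol, without a trailing copy number, begins with ddx or dhx and a digit, apart from ddx4. The choice used no measured value. It gave 51 of 12670 genes, made up of 37 ddx and 14 dhx genes and standing for 47 symbols. For 4 of these symbols, ddx17, ddx28, ddx39ab and ddx59, a copy number separates more than 1 entry of the count table. Each entry is called a gene here, and whether entries of the same symbol are separate genes is not stated in the sources used. The members ddx31_2 and dhx57_3 carry a copy number although no other entry of their symbol is in the table.

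The sections came from embryos of 3 ages: the 4-cell stage or near it, at 1 hour post fertilisation (hpf), 2 hpf with some 64 cells, and 3 hpf with some 1000. Each sample was cut into 5 sections, from A at the animal end, where the cells form, to E at the vegetal end, where the yolk lies, and the RNA of each section was sequenced (TOMO-seq). The labels give no strain, genotype, treatment or number of embryos behind a sample, and all 3 stages are described without any manipulation. They name 3 biological replicates per stage; the third replicate of 2 hpf has no column in the count table and is not analysed here, so n = 3, 2 and 3 at 1, 2 and 3 hpf, or 40 libraries from 8 embryo samples.

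DEAD and DEAH box helicases are named for the amino acid runs Asp-Glu-Ala-Asp and Asp-Glu-Ala-His in their ATP-binding core. They use ATP to unwind short RNA helices or to strip proteins from RNA, and nearly every step in the life of an RNA uses its own member: splicing, ribosome assembly, export, start of translation, and storage or decay of mRNA. At these stages the embryo runs largely on RNA laid down in the egg before its own genome takes over.

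Every library was made from 20 ng of RNA. A level is therefore relative to the other RNA of a section, and not an amount per embryo. It is given as CPM, counts divided by the library's total on a scale of 1e+06 after scaling by trimmed means of M values (TMM). The TMM factors ran from 0.855 (E, 3 hpf, replicate 3) to 1.05 (C, 2 hpf, replicate 2), so CPM is not a plain share of the counts. In bulk sections fewer cells of a kind and less RNA per cell cannot be told apart. Levels were not compared between genes, since no gene lengths were used. The libraries held between 1355607 and 6566549 counts. All 51 members passed the filter on low counts in every comparison, and 49 had at least 1 count in every library, with totals per member over all libraries running from 538 counts for ddx59_1 to 227179 for ddx3xb. The 5 vegetal marker genes were higher in E and the 5 animal marker genes lower in E at every stage; like the other lists, these markers were chosen with earlier results of these data known. Of 7 markers of maternal liver and blood none is in the table, and of 7 follicle cell markers 2 were measured, at a summed 0 to 9.39 CPM in the E libraries and 0 to 9.68 CPM in the A libraries. The libraries of replicate 3 at 1 and 3 hpf, together with sections A, B and E of replicate 2 at 2 hpf, stood apart from all others on the first principal component of all genes, which carried 41.6% of the variance. Sections C and D of that 2 hpf sample lay with the other libraries. What the libraries that stood apart share is not given in the labels, and whether any were exchanged was not tested. The section tests at 2 hpf share 1 fit of its 10 libraries, so this bears on all of them, E minus A and its intervals included. It also bears on the sums at 2 hpf.

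The first question was where along the axis helicase transcripts lie. After TMM scaling, their summed level varied little along it. Over all members the sum lay between 7110 CPM (section B, 1 hpf) and 7769 CPM (section E, 3 hpf) over the 15 section means. Without TMM, as a percentage of a library's counts, the sum was lower in E than in A in each embryo sample. At 1 hpf it was 0.706, 0.676 and 0.666% in E, against 0.758, 0.759 and 0.753% in A. At 2 hpf it was 0.693 and 0.637%, against 0.740 and 0.770%. At 3 hpf it was 0.685, 0.720 and 0.667%, against 0.773, 0.761 and 0.752%. No such value for other sets of genes is given here. The median ratio of a member's highest to its lowest section mean was 1.16, 1.24 and 1.19 at 1, 2 and 3 hpf. Over all genes with a ratio, these medians were 1.27, 1.45 and 1.37. Error raises such a ratio, and the members had less of it. The median SE of E minus A was 0.109, 0.165 and 0.131 for members and 0.163, 0.256 and 0.221 for all genes. Its part in the lower medians was not tested. No member had an E over A difference beyond 1 on the log2 scale (2-fold) at any stage, where 5.56%, 9.56% and 10.3% of all tested genes did at 1, 2 and 3 hpf.

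Few members passed the test of a difference between the ends. With edgeR's quasi-likelihood test and an adjusted p under 0.05 over all genes tested, the E minus A comparison called 3 of the 51 members at 1 hpf, where 13.1% of all genes were called. It called 1 at 2 hpf, where 9.99% of all genes were called, and 1 at 3 hpf, where 15.6% were. At 1 hpf ddx6 and ddx19a were higher in E (2 of 51 members, with 6.76% of all genes called higher) and dhx29 was lower (1 of 51, with 6.34% called lower). At 2 and 3 hpf the called member was ddx6, higher in E, where 5.12% and 8.1% of all genes were called higher; 0 members were called lower, where 4.87% and 7.49% were. At an unadjusted p under 0.05 there were 7, 4 and 6 members in either direction at 1, 2 and 3 hpf, and 23%, 20.4% and 25.6% of all genes. A test of any difference among the 5 sections called ddx6 and ddx19a at 1 hpf (11.5% of all genes called), ddx6 at 2 hpf (6.49%) and ddx6 at 3 hpf (12%); without the replicate block it called ddx6 at 1 hpf alone. Scaled to library totals, which moved the median of all genes by -0.14, -0.14 and -0.22 on the log2 scale at 1, 2 and 3 hpf, E minus A called 1 member higher and 6 lower at 1 hpf, 1 and 2 at 2 hpf, and 1 and 7 at 3 hpf. In these 3 fits ddx6 stayed higher in E. Their shares of all genes called are not given here, so these counts are not read as particular to the members.

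The low number of calls came with narrow intervals. At 1 hpf the 95% interval of the E over A difference lay within 2-fold in either direction for 49 of 51 members, at 2 hpf for 42 and at 3 hpf for 45; this held for 77.4%, 52.1% and 60.8% of all tested genes. For ddx59 and ddx59_1 at 1 hpf, for ddx17, ddx28, ddx39b, ddx59_1 and dhx33 at 2 and 3 hpf, for ddx1, ddx59, dhx36 and dhx57_3 at 2 hpf and for ddx41 at 3 hpf the interval reached past 2-fold, so a difference of that size lay within the error. The median size of the E over A difference, without its sign, was 0.11, 0.17 and 0.13 on the log2 scale for the members and 0.18, 0.29 and 0.27 for all genes at 1, 2 and 3 hpf.

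**Figure D1:**
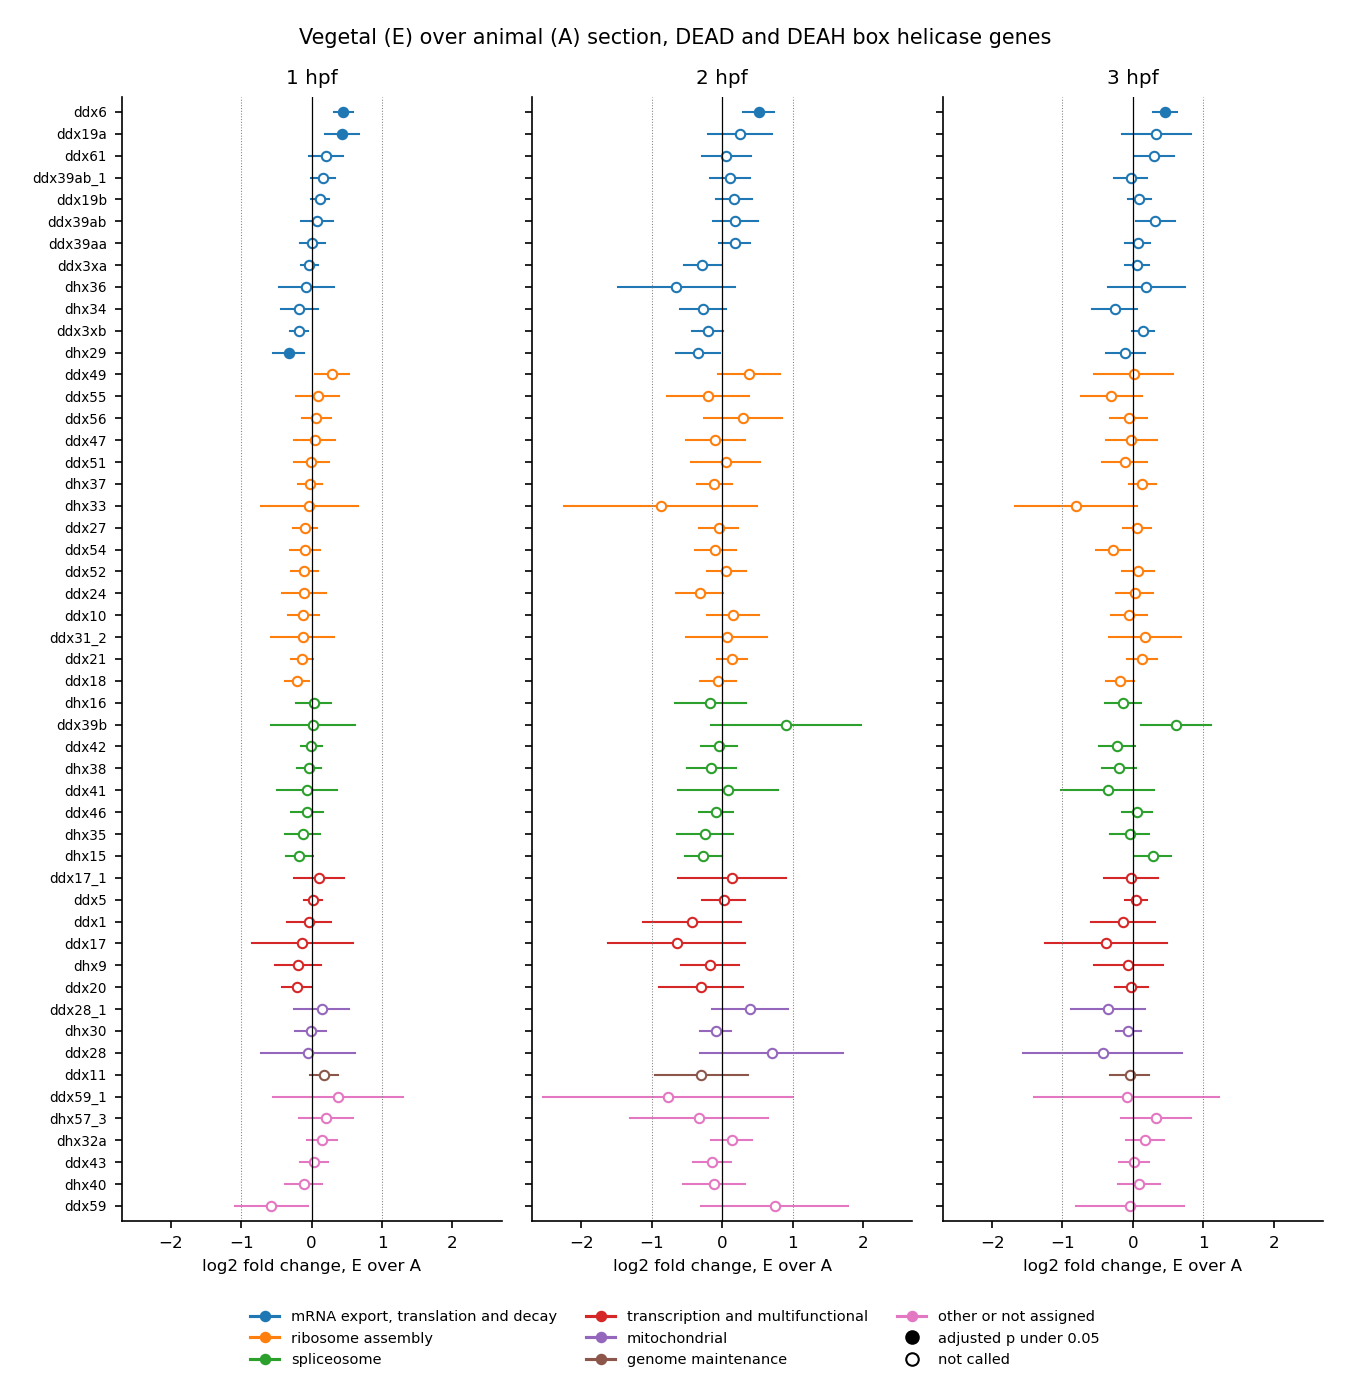
The log2 fold change of section E over section A (horizontal axis) for all 51 members (rows, grouped by known role and coloured by it) at 1, 2 and 3 hpf, with its 95% interval from edgeR; filled points have an adjusted p under 0.05 and dotted lines mark 2-fold. Points crowd around 0 at every stage, and ddx6 in the first row is the member filled in all 3 panels.

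The clearest member was ddx6, whose product holds maternal mRNAs in a silent state and feeds them to decay in cytoplasmic granules called P-bodies. At 1 hpf it had 430, 378 and 433 CPM in E, against 301, 288 and 319 CPM in A. At 2 hpf the values were 462 and 476 CPM in E, against 309 and 345 CPM in A. At 3 hpf they were 405, 412 and 540 CPM in E, against 315, 316 and 351 CPM in A. E and A did not overlap at any stage, and E was above A in each of the 8 embryo samples. The log2 fold change was 0.45 ± 0.07 (SE; 1.36-fold) at 1 hpf with an edgeR adjusted p of 1.99e-05. At 2 hpf it was 0.52 ± 0.10 (1.43-fold; adjusted p = 0.00845, edgeR), and at 3 hpf 0.45 ± 0.08 (1.37-fold; adjusted p = 0.000335, edgeR). The call stood in each of the 11 alternatives at every stage; at 2 hpf the fits without 1 replicate leave a lone sample, take their spread from 1 and 3 hpf and assume that it varies alike. The alternatives gave log2 fold changes from 0.32 to 0.47, from 0.36 to 0.58 and from 0.24 to 0.50.

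Between the ends, ddx6 was flat over the animal sections and higher toward the yolk. At 1 hpf sections B and C had 318, 288 and 339 CPM and 296, 274 and 335 CPM, and D had 336, 328 and 342 CPM. At 3 hpf B had 321, 304 and 365 CPM, C had 333, 325 and 391 CPM, and D had 394, 358 and 436 CPM. At both stages, D thus lay between C and E within each replicate. D minus A called no member at 1 hpf and none at 2 hpf with edgeR (3.63% and 3.89% of all genes called), and DESeq2 also called none. At an unadjusted p under 0.05 there were 1 and 3 members, beside 10.5% and 15.7% of all genes. At 3 hpf D minus A called 1 member, ddx6, with edgeR (6.78% of all genes called). That log2 fold change was 0.27 ± 0.08 with an adjusted p of 0.0478 from edgeR. It lost its call under library totals (0.20), without the replicate block (0.28) and without replicate 1 (0.25), 2 (0.32) or 3 (0.24).

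No change of the vegetal excess of ddx6 with stage was detected. The E minus A difference changed by 0.01 ± 0.09 on the log2 scale between 3 and 1 hpf, with a 95% interval from -0.18 to 0.20 and an adjusted p of 0.986 from edgeR. The level of ddx6 over all 5 sections was 338, 334 and 402 CPM at 3 hpf and 343, 308 and 354 CPM at 1 hpf, and these overlapped. In RefSeq's GRCz12tu gene table, ddx6 overlaps treh on the chromosome. The counts of treh summed to 1333 over all libraries, beside 62179 for ddx6, and whether counting used strand is not given in the sources used here.

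Its relative ddx61 did not pass. It had 76.9, 59.9 and 83.7 CPM in E, against 58.8, 60.0 and 68.3 CPM in A at 1 hpf, 85.7 and 77.4 CPM in E, against 80.9 and 76.1 CPM in A at 2 hpf, and 67.6, 76.6 and 105 CPM in E, against 63.3, 72.5 and 65.4 CPM in A at 3 hpf. The E minus A log2 fold changes were 0.20 ± 0.12, 0.06 ± 0.16 and 0.29 ± 0.14 at 1, 2 and 3 hpf, with adjusted p of 0.327, 0.905 and 0.176 (edgeR). Over the 8 embryo samples the E minus A difference of ddx6 exceeded that of ddx61 by 0.264 ± 0.188 on the log2 scale (SD; higher in 7 of 8 samples; 95% interval 0.107 to 0.421). A two-sided exact permutation test by sign flips gave p = 0.0156, and 0.0625 after Benjamini-Hochberg adjustment over 4 pairs of related genes, so the difference between them did not pass after adjustment. The test and the interval take the 8 samples as independent. If samples of the same number at different stages are related, both overstate the evidence.

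**Figure D2:**
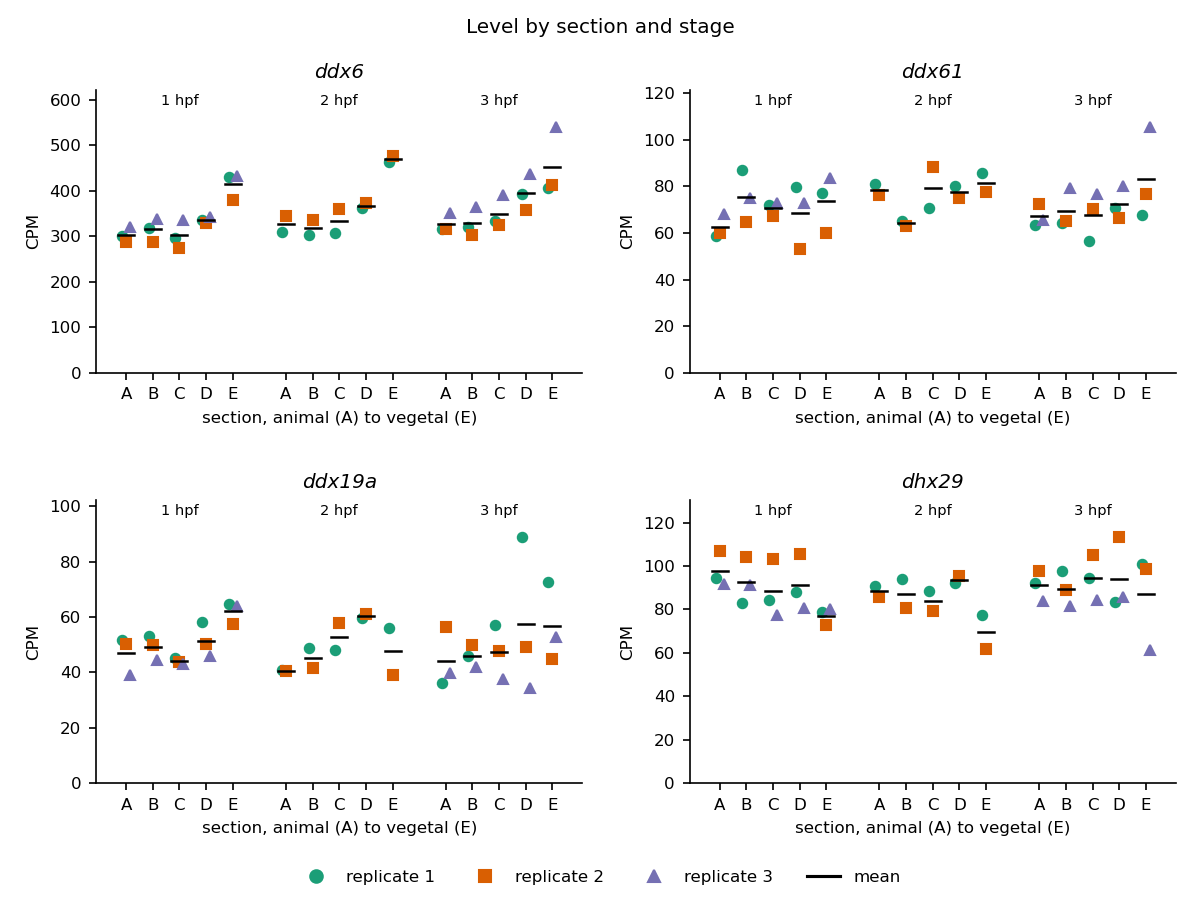
Level in CPM (vertical axis, from 0) of ddx6, ddx61, ddx19a and dhx29 in sections A to E at 1, 2 and 3 hpf; each symbol is 1 library, its shape and colour give the replicate and the bar is the mean. For ddx6 the E libraries lie at 378 CPM or more, above every A library of the same stage, while the other 3 genes overlap more.

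Transcripts for partners of Ddx6 did not share 1 position along the axis. Of the 7 genes measured, lsm14ab, which encodes an Lsm14 protein of the repressed mRNP, was higher in E at every stage, by 2.26 ± 0.12, 2.74 ± 0.13 and 3.00 ± 0.14 on the log2 scale at 1, 2 and 3 hpf (adjusted p = 1.71e-12, 1.65e-06 and 9.99e-13, edgeR). Its E libraries had 602, 750 and 931 CPM at 1 hpf, against 186, 149 and 148 CPM in A. The related lsm14aa was lower in E, by -0.34 ± 0.09 at 1 hpf and -0.57 ± 0.15 at 2 hpf (adjusted p = 0.00716 and 0.0432, edgeR), and did not pass at 3 hpf (-0.23 ± 0.10; adjusted p = 0.119, edgeR). Neither lsm14b, edc3, patl1, patl2 nor eif4enif1 was called at any stage.

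The mRNA export, translation and decay group holds 12 members. With TMM and all replicates, the edgeR fits within a stage called 3 of them between E and A at 1 hpf. They called 1 at 2 hpf and 1 at 3 hpf, and no member outside the group. Of all genes 13.1%, 9.99% and 15.6% were called. The roles were chosen with earlier results of these data known, and with library totals the splicing helicase dhx15 was called too. This is thus not read as a trait of the group. Here ddx19a, whose yeast relative Dbp5 releases mRNA on the outer side of the nuclear pore, had 64.5, 57.4 and 64.1 CPM in E, against 51.6, 50.3 and 38.9 CPM in A at 1 hpf. E lay above A in all 3 samples, and the log2 fold change was 0.43 ± 0.12 (adjusted p = 0.0142, edgeR). At 2 hpf it had 56.0 and 39.1 CPM in E, against 40.8 and 40.4 CPM in A, and at 3 hpf 72.6, 44.8 and 52.7 CPM in E, against 36.2, 56.5 and 39.7 CPM in A. In replicate 2 of both stages E was thus below A, and the differences of 0.25 ± 0.20 and 0.33 ± 0.23 did not pass. The call at 1 hpf was lost in 4 of 11 alternatives, among them the fit without replicate 3 (0.25). In RefSeq's GRCz12tu gene table vwa5b1 overlaps ddx19a. The counts of vwa5b1 summed to 514 over all libraries, beside 8810 for ddx19a. Its relative ddx19b differed by 0.12 ± 0.06, 0.17 ± 0.11 and 0.09 ± 0.08, with no call. Nup214, a nuclear pore protein that binds the Dbp5 family, had a transcript (nup214) lower in E at all stages, by -0.26 ± 0.08, -0.73 ± 0.12 and -0.39 ± 0.12 (adjusted p = 0.0297, 0.00329 and 0.0228, edgeR). Other partners of that family were not called: gle1 differed by 0.08, -0.07 and -0.08 and nup42 by 0.09, 0.24 and 0.30.

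The transcript of dhx29, a helicase that helps the small ribosomal subunit through structured leaders in mammals, was lower in E at 1 hpf. It had 78.6, 72.7 and 80.2 CPM in E, against 94.5, 107 and 91.6 CPM in A, and the groups did not overlap. The log2 fold change was -0.32 ± 0.10 (adjusted p = 0.044, edgeR). It lost its call in 6 of 11 alternatives, including the fits without replicate 1 (-0.35), 2 (-0.23) or 3 (-0.40). At 2 hpf dhx29 had 77.6 and 61.8 CPM in E, against 90.9 and 85.7 CPM in A, and at 3 hpf 101, 98.7 and 61.3 CPM in E, against 92.3, 97.9 and 84.1 CPM in A, where the groups overlapped. The log2 fold change at 2 hpf was -0.34 ± 0.14 (adjusted p = 0.199) and at 3 hpf -0.11 ± 0.13 (adjusted p = 0.682), both from edgeR.

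For ddx39ab at 3 hpf the E samples had 209, 153 and 133 CPM, against 126, 125 and 136 CPM in A (0.32 ± 0.13, adjusted p = 0.121, edgeR). Without replicate 3, where E lay below A, the difference became 0.50 and was called. The fits without replicate 1 or 2 are not given here. The highest value, in E of replicate 1, came from the library with the fewest counts (1355607). The ddx3x genes, relatives of yeast Ded1 in start site scanning, gave no call. At 1 hpf ddx3xb had 1214, 1166 and 1120 CPM in E, against 1361, 1381 and 1220 CPM in A. At 3 hpf it had 1404, 1380 and 1314 CPM in E, against 1345, 1276 and 1099 CPM in A. E was below A in 3 of 3 samples at 1 hpf and above it in 3 of 3 at 3 hpf. The E minus A log2 fold changes were -0.18 ± 0.06 (adjusted p = 0.0512) at 1 hpf, -0.20 ± 0.10 (0.29) at 2 hpf and 0.14 ± 0.08 (0.264) at 3 hpf, from edgeR. These values turn on the scaling: with library totals ddx3xb was called lower in E at 1 hpf (-0.31) and 2 hpf (-0.36), and its value at 3 hpf was negative (-0.07). At 1 hpf it was also called without the filter on low counts and with genes of 1 symbol summed. Its relative ddx3xa had E minus A differences of -0.03 ± 0.06, -0.28 ± 0.12 and 0.06 ± 0.08 at 1, 2 and 3 hpf, with no call. Over the 8 embryo samples the 2 genes' differences were 0.0016 apart on average (ddx3xa minus ddx3xb, log2 scale; 95% interval -0.128 to 0.132).

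Among the splicing helicases, dhx15, relative of yeast Prp43 in spliceosome disassembly, also had E below A at 1 hpf and above it at 3 hpf. It had 91.0, 99.3 and 106 CPM in E, against 121, 104 and 112 CPM in A at 1 hpf, 92.8 and 99.3 CPM in E, against 110 and 119 CPM in A at 2 hpf, and 106, 134 and 114 CPM in E, against 94.7, 85.4 and 110 CPM in A at 3 hpf. Its E value was below A in 3 of 3 samples at 1 hpf and above A in 3 of 3 at 3 hpf. None of its E minus A values passed (-0.17 ± 0.09, -0.27 ± 0.12 and 0.29 ± 0.12; adjusted p = 0.264, 0.229 and 0.138, edgeR), while with library totals it was called lower in E at 1 hpf (-0.31) and 2 hpf (-0.42). Whether the axis difference itself changed between stages was tested with the interaction of stage and section. Of the 51 members edgeR called 0 between 3 and 1 hpf, where 0.695% of all genes were called, and 0 between 2 and 1 hpf and between 3 and 2 hpf, where 0.0237% were called each time. At an unadjusted p under 0.05 there were 3, 2 and 4 members (5.88%, 3.92% and 7.84%), beside 10.9%, 8% and 10.5% of all genes. DESeq2 called 1 (ddx3xb), 0 and 0 members. The change between 3 and 1 hpf was 0.32 ± 0.09 for ddx3xb (adjusted p = 0.103) and 0.47 ± 0.14 for dhx15 (adjusted p = 0.14) with edgeR.

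The other 7 splicing helicases gave no call at any stage. At 2 hpf ddx39b, an export and splicing helicase of the UAP56 family, had 15.9 and 57.1 CPM in E, against 17.8 and 17.1 CPM in A, so its difference of 0.91 ± 0.47 rests on 1 library, without which it was -0.16. The same library set the value of dhx36, a helicase that opens G-quadruplexes, at 25.3 and 7.04 CPM in E, against 25.9 and 27.2 CPM in A (-0.65 ± 0.37, and -0.14 without it). At 3 hpf dhx36 had 49.2, 21.6 and 19.1 CPM in E, against 22.5, 27.8 and 24.0 CPM in A, and did not pass. At 3 hpf ddx39b had 28.4, 17.3 and 36.7 CPM in E, against 14.6, 19.8 and 18.4 CPM in A (0.61 ± 0.24, adjusted p = 0.0976, edgeR). Without replicate 2, where E lay below A, the difference of ddx39b became 0.99 and was called. The fits of ddx39b without replicate 1 or 3 are not given here. For the whole group of 8 the median E minus A difference was -0.05, -0.12 and -0.10 at 1, 2 and 3 hpf.

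The 15 ribosome assembly helicases act in the nucleolus on pre-ribosomal RNA. None was called between E and A at any stage, and their median difference was -0.09, -0.05 and -0.02 on the log2 scale. For ddx21, which acts in rRNA transcription and processing in mammals, the values at 3 hpf were 387, 452 and 351 CPM in E, against 373, 351 and 354 CPM in A, and they overlapped. For dhx37, whose yeast relative Dhr1 releases the U3 snoRNA, the E minus A differences were -0.02 ± 0.08, -0.11 ± 0.11 and 0.14 ± 0.09. Larger values for dhx33 at 2 hpf (-0.88 ± 0.61) and 3 hpf (-0.81 ± 0.42) did not pass, and their 95% intervals ran from -2.24 to 0.49 and from -1.67 to 0.05.

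Of the 6 transcription and multifunctional helicases, ddx5, a transcriptional co-regulator, had differences of 0.02 ± 0.06, 0.02 ± 0.13 and 0.04 ± 0.08 at 1, 2 and 3 hpf, and dhx9 had -0.19 ± 0.16, -0.17 ± 0.19 and -0.07 ± 0.24. The 3 mitochondrial members, dhx30, ddx28 and ddx28_1, and the DNA helicase gene ddx11 gave no call. Neither did the 6 members with another role or none assigned.

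The second question was whether levels change over the first hours. With the counts of the 5 sections summed, edgeR called 1 of the 51 members between 3 and 1 hpf, where 1.74% of all genes were called. It was ddx49, relative of yeast Dbp8 in small subunit assembly. It fell to 17.8, 26.1 and 18.4 CPM at 3 hpf, against 43.2, 37.4 and 49.2 CPM at 1 hpf; at 2 hpf it had 38.0 and 39.0 CPM. The log2 fold change of 3 over 1 hpf was -1.06 ± 0.17 (0.48-fold; adjusted p = 0.0377, edgeR), and with the replicate number as a block it was -1.07 (adjusted p = 0.0116, edgeR). The lower level held in all 5 sections: the highest of the 15 libraries at 3 hpf had 32.5 CPM and the lowest of the 15 at 1 hpf had 34.1 CPM. With 2 samples left at each of these stages the call was lost, without replicate 1 (-0.96), 2 (-1.34) or 3 (-0.87). Between 3 and 2 hpf the fold change was -0.89 ± 0.19 and did not pass (adjusted p = 0.141, edgeR).

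The ddx39 genes, whose products load export factors on mRNA, lay at the other side. For ddx39aa the levels were 361, 338 and 364 CPM at 3 hpf, against 291, 315 and 292 CPM at 1 hpf, without overlap; at 2 hpf they were 319 and 330 CPM. The log2 fold change was 0.24 ± 0.05 and missed the threshold (adjusted p = 0.0686, edgeR). With the replicate number as a block it passed at the same size (adjusted p = 0.0452, edgeR). The labels do not say that a number is shared between stages, and the blocked fit also holds the 2 hpf samples. That fit called 2 of 51 members, where it called 6.32% of all genes. The levels of ddx39ab were 142, 135 and 132 CPM at 3 hpf, against 125, 117 and 105 CPM at 1 hpf (0.24 ± 0.07; adjusted p = 0.181 without and 0.0535 with the block, edgeR), with 109 and 112 CPM at 2 hpf. For ddx39ab_1 they were 154, 158 and 155 CPM at 3 hpf, against 128, 142 and 134 CPM at 1 hpf (0.21 ± 0.06; adjusted p = 0.138 without and 0.054 with the block, edgeR), with 132 and 143 CPM at 2 hpf. Neither passed in edgeR, with or without the block, and DESeq2 called all 3 genes. As ddx39ab and ddx39ab_1 carry the same symbol, reads could have been split between them. Their sequences were not compared.

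**Figure D3:**
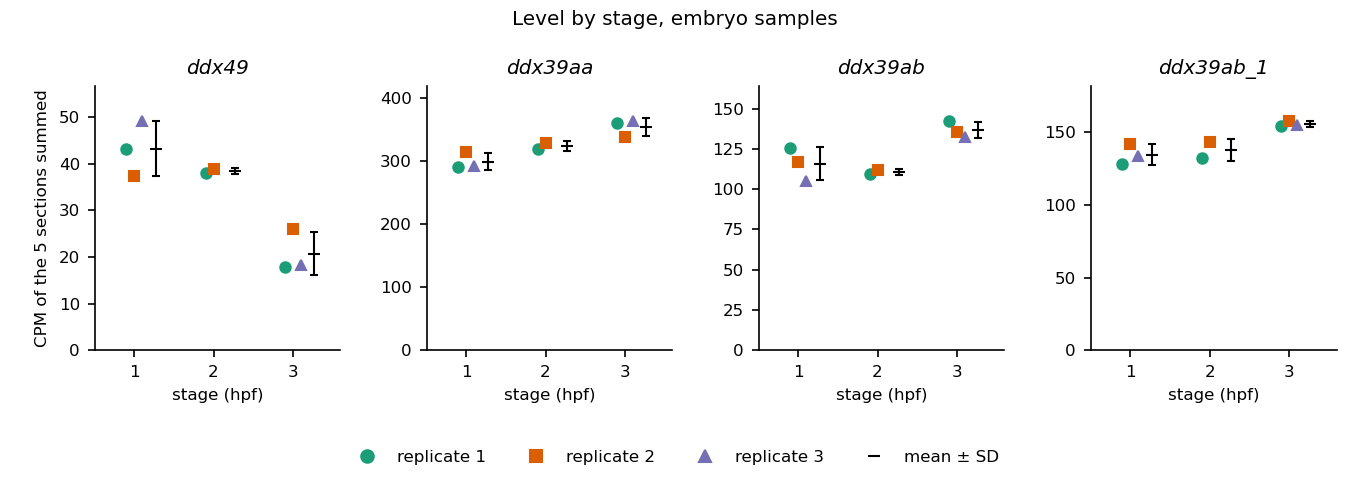
Level in CPM of the 5 sections summed (vertical axis, from 0) at 1, 2 and 3 hpf for ddx49 and the ddx39 genes; each symbol is 1 embryo sample and the bar shows mean ± SD (n = 3, 2 and 3). The 3 samples at 3 hpf lie at 26.1 CPM or less for ddx49, below all samples of the earlier stages.

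Without the block, edgeR called no other member between stages. Between 2 and 1 hpf it called 0 members and 0% of all genes, with 0 members and 402 genes at an unadjusted p under 0.05, and DESeq2 called 0 members. Between 3 and 2 hpf edgeR called 0 members, where 0.103% of all genes were called. At an unadjusted p under 0.05 there were 5 members, beside 10.9% of all genes, and DESeq2 called 2 members. Apart from ddx49, the differences between 3 and 1 hpf ran from -0.38 on the log2 scale for ddx28_1 (± 0.14; adjusted p = 0.257 without and 0.0906 with the block, edgeR) to 0.25 for ddx5 (± 0.12; adjusted p = 0.414 without and 0.0823 with the block, edgeR). For 47 of 51 members the 95% interval of that difference lay within 2-fold.

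None of the next members was called between stages in edgeR, and their levels are given in full. Over the summed sections ddx3xa had 504, 483 and 461 CPM at 1 hpf, 535 and 486 CPM at 2 hpf and 523, 512 and 465 CPM at 3 hpf, and ddx3xb had 1290, 1371 and 1211 CPM, 1297 and 1217 CPM, and 1437, 1306 and 1148 CPM at these stages. Both overlapped across all stages. For ddx21 the samples had 353, 381 and 295 CPM at 1 hpf, 355 and 351 CPM at 2 hpf and 402, 397 and 338 CPM at 3 hpf, and for dhx37 236, 221 and 244 CPM, 242 and 239 CPM, and 227, 219 and 226 CPM. Both nucleolar helicases overlapped between 3 and 1 hpf, while within same-numbered samples ddx21 was higher at 3 hpf in 3 of 3 (0.15 ± 0.05; adjusted p = 0.136 with the block, edgeR). For ddx5 the samples had 524, 543 and 617 CPM at 1 hpf, 515 and 631 CPM at 2 hpf and 630, 603 and 770 CPM at 3 hpf; the stages overlapped, and within same-numbered samples the level was higher at 3 hpf than at 1 hpf in 3 of 3, which did not pass with the block as given above. The levels of dhx9, RNA helicase A, were 32.6, 33.7 and 33.5 CPM at 1 hpf, 37.3 and 37.3 CPM at 2 hpf and 24.9, 31.9 and 30.7 CPM at 3 hpf, the lowest in all 3 samples (-0.19 ± 0.11 for 3 over 1 hpf; adjusted p = 0.523 without and 0.335 with the block, edgeR). For dhx15 and dhx36 the levels overlapped between 3 and 1 hpf: 106, 111 and 119 CPM for dhx15 at 3 hpf, against 108, 101 and 107 CPM at 1 hpf, and 24.6, 26.0 and 23.3 CPM for dhx36 at 3 hpf, against 25.0, 23.8 and 26.1 CPM at 1 hpf. At 2 hpf dhx15 had 110.8 and 115.4 CPM and dhx36 had 28.5 and 25.9 CPM. For ddx39b the 3 samples at 3 hpf had 18.9, 17.9 and 21.2 CPM, against 15.9, 16.9 and 20.7 CPM at 1 hpf, again overlapping, with 16.3 and 18.2 CPM at 2 hpf.

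Several members differed more between replicates than between sections or stages. In the libraries that stood apart from the others, ddx17 was mostly high and ddx17_1 low. Section E of replicate 3 at 3 hpf was an exception, with 6.53 CPM of ddx17, and section A of replicate 1 at 1 hpf reached 13.2 CPM although it did not stand apart. At 3 hpf ddx17 had 5.66, 5.87 and 16.3 CPM in replicates 1, 2 and 3, and ddx17_1 had 37.0, 36.2 and 14.9 CPM. At 1 hpf ddx17 had 4.64, 6.23 and 14.9 CPM, and ddx17_1 had 29.5, 34.7 and 16.0 CPM. Both carry the symbol ddx17, and their sequences were not compared. Whether reads were split differently between them, or either differed in level, was not tested. In replicate 2 of 2 hpf, ddx17 had 16.2, 15.1, 6.82, 3.52 and 10.2 CPM in A to E and ddx17_1 had 10.7, 19.1, 29.5, 33.9 and 11.7 CPM. Sections C and D of that sample, which did not stand apart, thus had less ddx17 than its A, B and E; replicate 1 had 4.53, 5.52, 3.63, 2.05 and 3.22 CPM of ddx17 in A to E. The D minus A differences at 2 hpf (-1.80 ± 0.45 for ddx17 and 1.11 ± 0.32 for ddx17_1; adjusted p = 0.065 and 0.112, edgeR) move with that change of libraries, whose part in them was not tested.

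Such replicate differences also touched dhx57_3 and ddx20, a member of the SMN complex that builds splicing particles. Replicate 3 against replicates 1 and 2 differed at 1 and 3 hpf by 1.31 and 1.36 on the log2 scale for ddx17, by -0.96 and -1.24 for ddx17_1, by 0.895 and 1.00 for dhx57_3 and by -0.65 and -0.76 for ddx20. A difference above 1 in size at both stages was found for 1 of 51 members (1.96%) and for 782 of 12670 genes (6.17%). For ddx6, E was above A within every replicate, those that stood apart included.

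**Figure D4:**
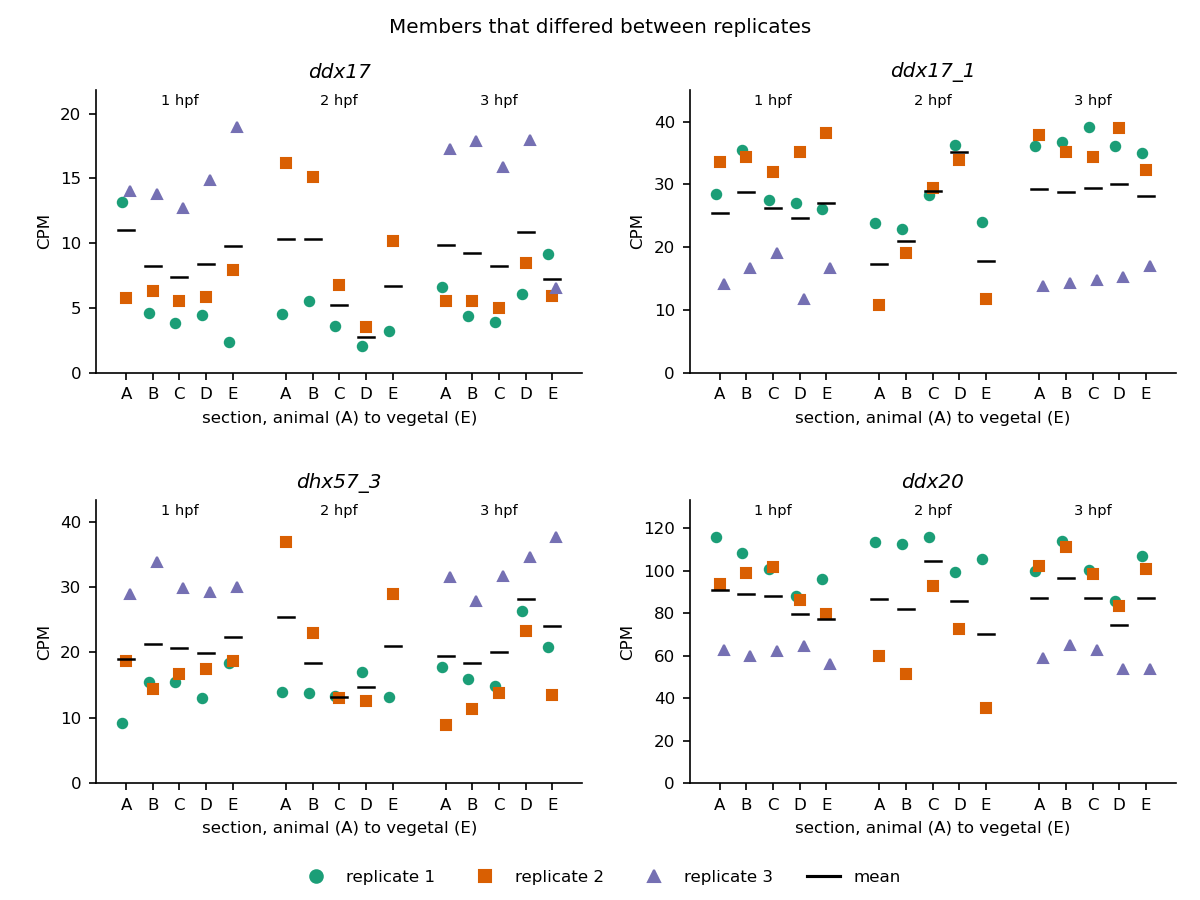
Level in CPM (vertical axis, from 0) of ddx17, ddx17_1, dhx57_3 and ddx20 in sections A to E at 1, 2 and 3 hpf; symbols are libraries, shape and colour give the replicate and bars are means. Replicate 3 lies apart from replicates 1 and 2 at 1 and 3 hpf, except for ddx17 in section A at 1 hpf (13.2 CPM in replicate 1) and section E at 3 hpf (6.53 CPM in replicate 3), and at 2 hpf replicate 2 lies nearer to replicate 1 in sections C and D than in A and E, as with ddx17 at 6.82 and 3.52 CPM.

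Other RNA helicases, whose symbols fall outside the family names, were counted in the same way. Of 28 such symbols 17 were measured, in 19 genes of the table. E minus A called 2 of them higher and 5 lower at 1 hpf, 1 higher and 2 lower at 2 hpf, and 3 higher and 4 lower at 3 hpf. These are 36.8%, 15.8% and 36.8% of the 19 genes, beside 13.1%, 9.99% and 15.6% of all genes. The list was chosen with earlier results of these data known, so these shares are not read as an excess over all genes. Higher in E at every stage was ythdc2, a helicase that reads methylated RNA and acts in germ cells of mammals, at 1.18 ± 0.09, 1.53 ± 0.19 and 2.07 ± 0.11 (log2), and the excess grew by 0.89 ± 0.17 between 3 and 1 hpf (adjusted p = 0.0061, edgeR). For dicer1, which cuts precursors of small RNAs, the values were 0.59 ± 0.11, 0.21 ± 0.19 and 0.86 ± 0.12 at 1, 2 and 3 hpf (adjusted p = 0.000427, 0.647 and 9.02e-06, edgeR). The second entry of that symbol, dicer1_1, had 0.40 ± 0.18, -0.03 ± 0.23 and 0.74 ± 0.17 and was called at 3 hpf (adjusted p = 0.00392, edgeR). Lower in E at 1 hpf were upf1, mov10l1, aqr, setx and helz, by -0.20 to -0.70. No gene of this list was called between stages with edgeR.

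Cofactors of the helicases were described in the same way. Of 65 symbols 57 were measured, in 63 genes, and E minus A called 2 higher and 7 lower at 1 hpf, 2 and 5 at 2 hpf, and 2 and 7 at 3 hpf. The scaffold genes eif4g1a (-0.68 ± 0.07, -0.94 ± 0.21 and -1.30 ± 0.12) and eif4g3a (-0.66 ± 0.11, -1.20 ± 0.19 and -0.99 ± 0.14) were lower in E at all 3 stages. Gemin5 of the SMN complex, in which Ddx20 acts, had a transcript (gemin5) lower in E at 1 hpf (-0.71 ± 0.09) and 3 hpf (-0.44 ± 0.13), and did not pass at 2 hpf (-0.51 ± 0.16; adjusted p = 0.0829, edgeR). The exon junction gene rbm8a was higher in E at each stage (0.53 ± 0.10, 0.77 ± 0.14 and 0.67 ± 0.09). The 18 genes with a G-patch, a motif that activates DEAH box helicases, had no call at 1 or 2 hpf and 2 at 3 hpf (gpatch1 and tfip11, lower in E). None of the 9 genes that act with the ddx39 helicases was called at any stage. Of the list, 14.3%, 11.1% and 14.3% were called at 1, 2 and 3 hpf, near the 13.1%, 9.99% and 15.6% of all genes, and its median E minus A difference was -0.06, -0.06 and -0.07, beside medians of all genes between -0.02 and 0.02.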

How the data were processed

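Total RNA of each section was depleted of ribosomal RNA and made into directional libraries, per the labels' protocols. The authors deposited whole-number read counts per gene; the submitters' processing notes name genome build GRCz11 and, without their roles, HTSeq 2.0.4, STAR 2.7.11, fastp 0.23.4 and DESeq2. The lowest total of any gene in these deposited counts, over 40 libraries, was 60. The deposited normalised tables were not used. The libraries held 1466522 to 6428496 counts at 1 hpf, 1466266 to 6566549 at 2 hpf and 1355607 to 5398317 at 3 hpf.

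From the counts, edgeR 4.0.16 (R 4.3.3; TMM, filterByExpr, quasi-likelihood test, Benjamini-Hochberg at 0.05 over all genes tested) was fitted within a stage with section and replicate as terms, over all libraries with a block per embryo sample for changes of the axis difference, and on counts summed over sections for stages. Printed CPM use TMM factors over all 40 libraries, or over the 8 sums. Fits were run on simulated data with the same spread for all genes and no replicate differences. The libraries that stood apart were thus not mimicked. Sections of 1 number come from 1 biological replicate in the labels, hence the block within a stage. Between 1 and 3 hpf same-numbered sums deviated together from the mean of their stage (correlations 0.68, 0.663 and 0.89). Replicate 3 stood apart at both stages, which enters all 3 values, and no correlation of differently numbered sums is given here. These values thus do not tell whether numbers 1 and 2 pair. The blocked value, from a fit that also holds the 2 hpf sums, is given beside calls and the largest differences between 1 and 3 hpf. Values with ± are log2 fold changes fitted by edgeR and their SE, unless named SD. Each SE is the size of the fold change over the square root of its F statistic. The edgeR intervals rest on this SE. The p-values rest on the spread among the samples at hand. Whether replicates came from separate clutches is not given in the labels. Paired relatives were compared by an exact sign-flip permutation test over 8 embryo samples, taken as independent across stages. Alternatives were library totals, DESeq2 size factors, DESeq2 1.42.0, limma 3.58.1 on log2(CPM + 1) for stages, no filter, summed copies, no block, 1 fit of all libraries, and leaving out replicates or single sections.

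The family, gene lists, roles and tests were chosen with earlier results of these data known, though the rule for members reads symbols alone. Values in every sample, of the end sections or of the sums, are given for members that passed a test and for ddx3xa, ddx3xb, ddx6, ddx61, ddx5, ddx17, ddx21, ddx39aa, ddx39ab, ddx39b, dhx9, dhx15, dhx36 and dhx37; other members named were picked after their values were seen. Of 47 symbols 46 are in RefSeq's gene table. Its assembly, GRCz12tu, differs from that of the counts, so no coordinates are given.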

Additional observations from a re-analysis of the deposited data

How the results depend on the processing

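Counts of called members were recomputed under every alternative. Of these counts, 126 of 168 stayed within 1.5 times their original value. A count of 0 in both fits was scored as staying. The original count was 0 for D minus A at 1 and 2 hpf and for every change of E minus A. It was also 0 for the summed counts between 2 and 1 hpf and between 3 and 2 hpf. The share thus does not measure how stable the counts above 0 were. No direction of a single member turned round among those that were called. Apart from the replicate block, the shares of all genes called under the alternatives are not given here. The counts in this section thus do not set the members apart from all genes. With library totals, the test of any section difference called 4, 0 and 5 members at 1, 2 and 3 hpf, E minus A called 7, 3 and 8, and D minus A at 3 hpf called 0. Without the replicate block, the any-section test called 1, 0 and 0 members, E minus A at 1 hpf called 1, and D minus A at 3 hpf called 0. With all libraries in 1 fit, the any-section test called 1, 5 and 2, E minus A called 1, 2 and 2, and D minus A at 2 hpf called 2. DESeq2 called 1 member for the change of E minus A between 3 and 1 hpf, 4 for the summed counts between 3 and 1 hpf and 2 between 3 and 2 hpf. With a replicate block, the summed counts gave 2 members between 3 and 1 hpf, where 6.32% of all genes were called. Between 3 and 2 hpf they gave 2 (ddx49 and ddx39ab), where 4.54% of all genes were called. Replicate 2 of 2 hpf correlated with the same number at 1 and 3 hpf at -0.645 and -0.663. For replicate 1 of 2 hpf these values were 0.672 and 0.65. With 2 samples at 2 hpf their deviations from the stage mean mirror each other, so these values do not tell whether the numbers pair that stage. The block changed no other call in the summed counts.

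Leaving out replicates or single sections gave 1 to 2 members for the any-section test and 1 to 3 for E minus A at 1 hpf. At 2 hpf, where leaving out a replicate leaves 1 library per section and the spread comes from 1 and 3 hpf, these tests gave 0 to 11 and 1 to 7, and D minus A 0 to 5; the high ends are fits without replicate 1, which leave the sample with sections on both sides of the first principal component. At 3 hpf the ranges were 0 to 1, 1 to 2 and 0 to 1. The change of E minus A between 2 and 1 hpf gave 0 to 1, and the summed counts between 3 and 1 hpf 0 to 0. Where no cause follows from the construction of an alternative, such as fewer samples, the cause was not tested. Depth and replicate spread were not separated as sources of the wide intervals.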

Other observations

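Across the 51 members, the E minus A differences of 2 stages were loosely related. Pearson's r was 0.0993 between 1 and 2 hpf, 0.262 between 1 and 3 hpf and 0.35 between 2 and 3 hpf, across genes of the same libraries and with no p given. Without ddx6 the members gave 0.0188, 0.182 and 0.307. Across all genes tested r was 0.7, 0.679 and 0.653. Spearman's rho was closer, at 0.298, 0.213 and 0.24 for the members and 0.465, 0.417 and 0.431 for all genes. The signs of the members were equal in 36, 30 and 31 of 51 cases. The median size of a member's difference was 0.105, 0.175 and 0.131 at 1, 2 and 3 hpf. Its median SE was close to that, at 0.109, 0.165 and 0.131. Error of that size lowers a correlation, so these values do not tell whether members change position between stages.

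The section with the highest mean also varied among members. At 1 hpf it was A for 13 members, B for 5, C for 4, D for 16 and E for 13. At 2 hpf it was A for 9, B for 10, C for 8, D for 9 and E for 15. At 3 hpf it was A for 6, B for 7, C for 9, D for 17 and E for 12. Such counts over all genes are not given here. The median ratio of the highest to the lowest section mean was 1.16, 1.24 and 1.19 at 1, 2 and 3 hpf. These counts are thus not read as a preference of the members for a section.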
